A study of Mus musculus with 4 samples.

Results

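The CCN family and Yap signalling genes form a set of 9 genes chosen by symbol from the 23284 symbols counted in each sample: the CCN genes *Cyr61*, *Ctgf*, *Nov*, *Wisp1* and *Wisp2*, and *Ankrd1*, *Yap1*, *Tead1* and *Amotl2*. All 9 were found, and all 9 passed the filter on low counts, which kept 15645 genes. RNA was sequenced from GFP-expressing, propidium iodide-negative cells that were sorted from limbs of C57BL/6J embryos at E13.5, with 2 samples of *Osr1* GCE/+ and 2 of *Osr1* GCE/GCE. The GCE allele is a knock-in of eGFP and CreERt2 into *Osr1*, so that GFP follows the activity of the *Osr1* locus. It was present in every sample. The GCE/+ cells therefore kept 1 copy of *Osr1*, the GCE/GCE cells had both copies replaced, and no cells without the allele were among the samples. Each sample came from a separate embryo, and forelimbs and hindlimbs were not separated in the labels.

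CCN proteins are secreted, cysteine-rich proteins that bind integrins and proteoglycans in the extracellular matrix (ECM) and modulate cell adhesion and growth factor signalling. Yap1 is the transcriptional coactivator that the Hippo kinase cascade holds in the cytoplasm. When it enters the nucleus it binds transcription factors of the Tead family, such as Tead1, and *Cyr61*, *Ctgf*, *Ankrd1* and *Amotl2* are among its best-known target genes. Amotl2, an angiomotin-like scaffold, is also an inhibitor of Yap1, and *Ankrd1* encodes an ankyrin repeat protein of stretched muscle and wounded tissue. In developing limbs CCN proteins are best known from cartilage, tendon and vessels.

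The proximal promoter of *Cyr61* and short stretches of 3 others are shown because they hold the letters that Tead proteins are known to bind. Sequences are those of RefSeq for GRCm38.p6. Windows were available for 4 of the 9 genes, each from 250 bases before a start site of the gene to the base before it. Capitals mark GGAATG or its reverse complement CATTCC. *Cyr61* lies on the minus strand and its window is chr3:145649986-145650235.
Cyr61: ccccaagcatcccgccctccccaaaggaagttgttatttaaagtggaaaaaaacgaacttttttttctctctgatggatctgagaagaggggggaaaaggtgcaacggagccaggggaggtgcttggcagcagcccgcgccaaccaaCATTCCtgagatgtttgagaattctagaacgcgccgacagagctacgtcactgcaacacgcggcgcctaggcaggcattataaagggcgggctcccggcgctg

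For the other 3 genes only the 30 bases around each match are shown. The *Yap1* window overlaps the span of the gene by 42 bases, its start site lying inside that span. That of *Amotl2* lies wholly inside the span of its gene. Of its 250 bases, 136 lie in exons of other transcripts of the same gene in GENCODE. All 250 bases of the *Ankrd1* window lie in such exons of *Ankrd1*. The stretches lie at chr9:8004720-8004749 on the minus strand for *Yap1*, at chr9:102717727-102717756 on the plus strand for *Amotl2*, and at chr19:36120037-36120066 and chr19:36119950-36119979 on the minus strand for *Ankrd1*.
Yap1: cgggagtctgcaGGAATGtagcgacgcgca
Amotl2: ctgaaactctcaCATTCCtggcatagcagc
Ankrd1 first site: gtcactgccaaaGGAATGaccctctcacat
Ankrd1 second site: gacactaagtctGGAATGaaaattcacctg

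The matches began 103 bases before the start site of the window in *Cyr61*, 141 in *Yap1*, 65 in *Amotl2*, and 210 and 123 in *Ankrd1*. All 4 windows thus held the 6 letters on 1 of the 2 strands, compared with 12.6% of the 32851 RefSeq windows of the same length. The remaining genes of the set had no window, and *Cyr61*, *Amotl2* and *Ankrd1* are known Yap1 targets. The 4 windows therefore do not stand for the set. *Cyr61* also held TATAAA, starting 25 bases before the start site, a sequence found in 12.4% of windows. The CArG box, which serum response factor binds, was not found in the 4 windows and occurred in 1.47% of all. TGANTCA, the letters of an AP-1 site, was not found in them either and occurred in 6.75%. Matches of letters were counted here and no binding was measured.

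The counts of a sample summed to between 52121596 and 61402140, and 3 counts correspond to 0.0489 to 0.0576 CPM, the counts of a gene per 1e+06 counts of the sample. *Osr1* had 81.9 and 79.1 CPM in the GCE/+ embryos and 11.9 and 13.9 CPM in the GCE/GCE embryos. The embryos differed in sex, with *Xist* at 1142 CPM in GCE/GCE replicate 1 and at 2.63 or less in the others. All 8 mesenchymal markers were present in every sample, with summed levels of 16582 and 15023 CPM in the GCE/+ embryos and 14267 and 12429 CPM in the GCE/GCE embryos. None passed the threshold between the genotypes, 7 had a negative log2 fold change (median -0.14), and *Dcn* had the most negative (-0.68, adjusted p = 0.131 in edgeR). Most of the summed level was *Col3a1*, with 9550 and 8788 CPM in the GCE/+ embryos and 7718 and 6846 CPM in the GCE/GCE embryos. Among markers of other cell types, the summed CPM of 8 macrophage genes was 168 and 166 in the GCE/+ embryos and 101 and 67.3 in the GCE/GCE embryos, and that of 8 cartilage genes was 613 and 979 in the GCE/+ embryos and 1357 and 1496 in the GCE/GCE embryos. Bulk counts cannot tell fewer cells of a type from less RNA per cell.

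*Cyr61*, at chr3:145646971-145649985 of GRCm38.p6, encodes CCN1, an early-response matrix protein, and was by far the most abundant transcript of its family. It had 664 and 555 CPM in GCE/+ replicates 1 and 2 and 614 and 538 CPM in GCE/GCE replicates 1 and 2, and ranked 178 of 15645 genes by mean CPM. The genotypes overlapped, with replicate 1 above replicate 2 in each. The 6 CCN genes, with *Wisp3* added to the 5 of the set, together had 802 and 675 CPM in the GCE/+ embryos and 772 and 673 CPM in the GCE/GCE embryos. *Cyr61* made up 82.7% and 82.2% of this sum in the GCE/+ embryos and 79.6% and 80.0% in the GCE/GCE embryos.

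*Ctgf*, at chr10:24595442-24598683, encodes CCN2, connective tissue growth factor, and was far lower. It had 30.6 and 26.1 CPM in the GCE/+ embryos and 31.7 and 27.6 CPM in the GCE/GCE embryos, ranking 6787. The values of the genotypes interleaved. *Wisp1*, at chr15:66891369-66923201, encodes CCN4, a Wnt-inducible member of osteogenic mesenchyme. It had 85.5 and 79.9 CPM in the GCE/+ embryos and 104 and 95.7 CPM in the GCE/GCE embryos, and both GCE/GCE samples lay above both GCE/+ samples.

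*Nov*, at chr15:54745910-54753762, encodes CCN3, which often opposes CCN2. It had 21.7 and 13.8 CPM in the GCE/+ embryos and 21.02 and 10.9 CPM in the GCE/GCE embryos. Replicate 1 of both genotypes was high and replicate 2 of both was low. *Wisp2*, at chr2:163820752-163833146, encodes CCN5, the member that lacks the C-terminal cystine knot of the others. It was close to the lower limit, with 12 and 6 counts in the GCE/+ embryos and 19 and 11 counts in the GCE/GCE embryos, or 0.197, 0.115, 0.327 and 0.180 CPM. *Wisp3* (CCN6), which is outside the set, had 29, 16, 17 and 16 counts in the same order of samples. Both were above 3 counts in every sample, and for *Wisp2* the genotypes overlapped.

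**Figure D1:**
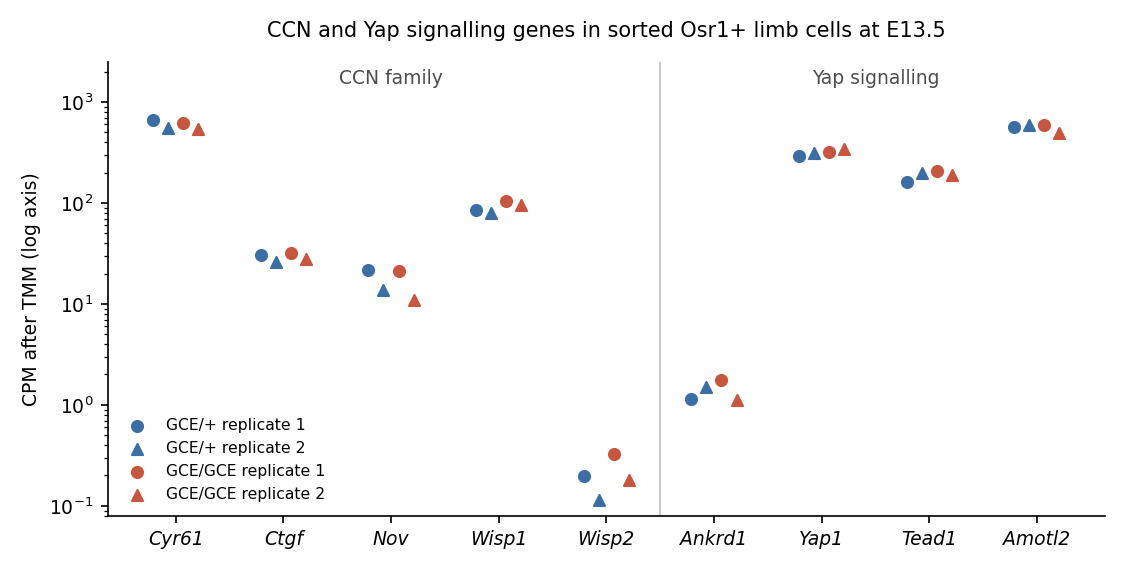
CPM after TMM normalization (log axis) of the 9 genes in each of the 4 samples, blue for GCE/+ and red for GCE/GCE, circles for replicate 1 and triangles for replicate 2. *Cyr61* lies between 538 and 664 CPM and *Wisp2* between 0.115 and 0.327 CPM, and replicate 1 lies above replicate 2 in both genotypes for each of the 5 CCN genes.

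*Yap1*, at chr9:7931999-8004638, was well expressed and varied little. It had 294 and 312 CPM in the GCE/+ embryos and 319.6 and 339 CPM in the GCE/GCE embryos, so that the GCE/GCE values lay just above the GCE/+ values. *Tead1*, at chr7:112679356-112906784, had 162 and 196 CPM in the GCE/+ embryos and 208 and 190.1 CPM in the GCE/GCE embryos. GCE/+ replicate 1 was the low sample and the other 3 lay close together.

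*Amotl2*, at chr9:102717091-102733418, came close to *Cyr61* in CPM, with 564 and 596 CPM in the GCE/+ embryos and 590.2 and 496 CPM in the GCE/GCE embryos, ranking 201. GCE/GCE replicate 2 was the low sample. *Ankrd1*, at chr19:36111965-36119844, had only 1.15 and 1.49 CPM in the GCE/+ embryos and 1.76 and 1.13 CPM in the GCE/GCE embryos, from 69 to 102 counts. Its lowest and its highest value were both from GCE/GCE cells. The 4 named Yap1 target genes of the set thus divided into *Cyr61* and *Amotl2*, with 496 to 664 CPM, *Ctgf*, with 26.1 to 31.7, and *Ankrd1*, with 1.13 to 1.76.

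Levels were compared between genes as CPM per kb of transcript. By the mean of the 4 samples the order was *Cyr61* with 294 CPM per kb, *Amotl2* with 129.7, *Yap1* with 75.8, *Tead1* with 19.0, *Wisp1* with 17.9, *Ctgf* with 12.1, *Nov* with 5.88, *Ankrd1* with 0.684 and *Wisp2* with 0.119. *Tead1* and *Wisp1* changed places in GCE/+ replicate 1, with 16.3 and 16.8 CPM per kb, and their ranges over the samples overlapped. No other neighbours in this order overlapped in their range. Of the Tead paralogues, *Tead2* was the most abundant, with a mean of 109 CPM per kb, ahead of *Tead3* with 23.2, *Tead1*, and *Tead4* with 1.07. *Wwtr1*, which encodes TAZ, the paralogue of Yap1, had 41.0 CPM per kb and lay below *Yap1* in each sample.

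**Figure D2:**
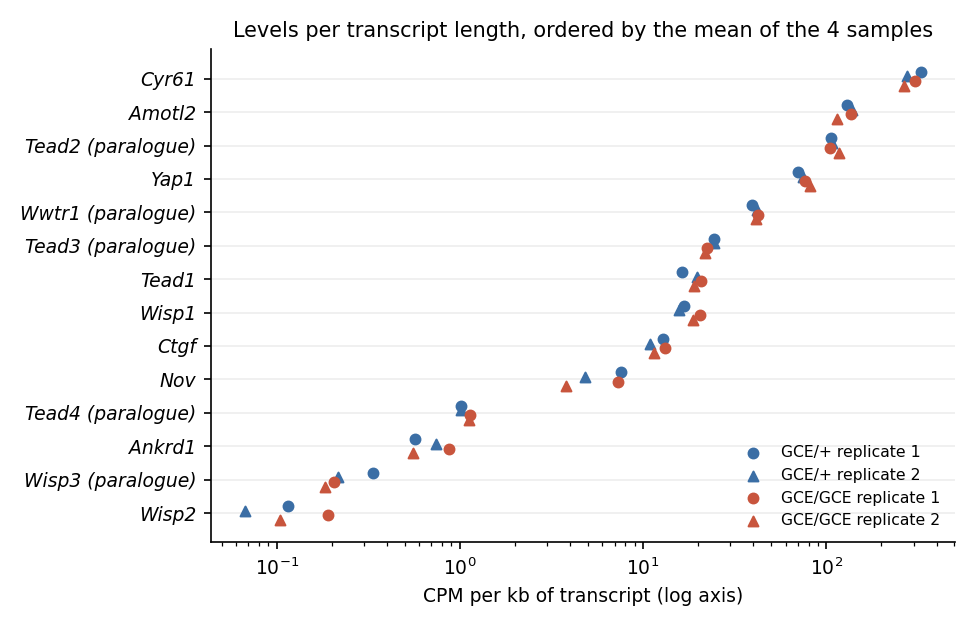
CPM per kb of transcript (log axis) of the 9 genes and of 5 paralogues in each sample, ordered from top to bottom by the mean of the 4 samples. *Cyr61* is highest, at 267 to 329 CPM per kb, *Tead2* lies between *Amotl2* and *Yap1*, and the points of *Tead1* and *Wisp1* overlap.

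To ask whether loss of *Osr1* alters these genes, GCE/GCE cells were compared with GCE/+ cells over all 15645 genes by the quasi-likelihood test of edgeR, with p-values adjusted by the Benjamini-Hochberg method and a threshold of 0.1. None of the 9 genes passed, compared with 1.82% of all genes tested (0.895% higher and 0.927% lower in the GCE/GCE embryos). In DESeq2, which gave an adjusted p for 8 of the 9, none passed, compared with 3.45% of genes. An unadjusted edgeR p under 0.05 was reached by 1 of the 9, *Wisp1*, and by 10.5% of all genes. With 2 samples against 2 an exact permutation test of a single gene cannot go below p = 0.333, so that the test rests on a spread shared across genes.

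The *Wisp1* log2 fold change was 0.27 (SE 0.09, 95% interval 0.08 to 0.47), with an unadjusted p of 0.0124 and an adjusted p of 0.247. Its groups did not overlap, and neither did those of *Yap1*. This made 2 of 9 genes with both GCE/GCE values above both GCE/+ values, compared with 19.2% of all genes, and 0 of 9 with both below, compared with 19.1%, or 38.4% in either direction. *Yap1* had a log2 fold change of 0.12 (SE 0.09), with an interval from -0.08 to 0.32 and an adjusted p of 0.767.

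For the abundant genes the intervals were narrow. *Cyr61* had a log2 fold change of -0.08 (95% interval -0.35 to 0.19), which spans 0.783-fold to 1.14-fold. *Amotl2* had -0.10 (-0.35 to 0.16), *Tead1* had 0.15 (-0.09 to 0.40) and *Ctgf* had 0.06 (-0.21 to 0.33). A doubling or halving of these transcripts lay outside the intervals. *Nov* had -0.15 with an interval from -0.83 to 0.53, *Ankrd1* had 0.13 with -0.53 to 0.79, and *Wisp2* had 0.66 with -0.53 to 1.85. For *Wisp2* the interval covered folds from 0.693 to 3.60, so that even a large change would not be detectable at its counts. The median log2 fold change of the 9 genes was 0.12, and that of all genes tested was 0.0033.

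Leaving out 1 sample at a time ended this result for 1 gene. Without GCE/GCE replicate 1, the remaining GCE/GCE sample was the one with the fewest *Nov* transcripts, and *Nov* passed with a log2 fold change of -0.70 (adjusted p = 0.0133), as did 4.7% of all genes. In this fit the lone GCE/GCE sample is assumed to vary as the 2 GCE/+ samples do. Without GCE/GCE replicate 2 the value was 0.24, in the other direction, and without GCE/+ replicate 1 it was 0.21.

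**Figure D3:**
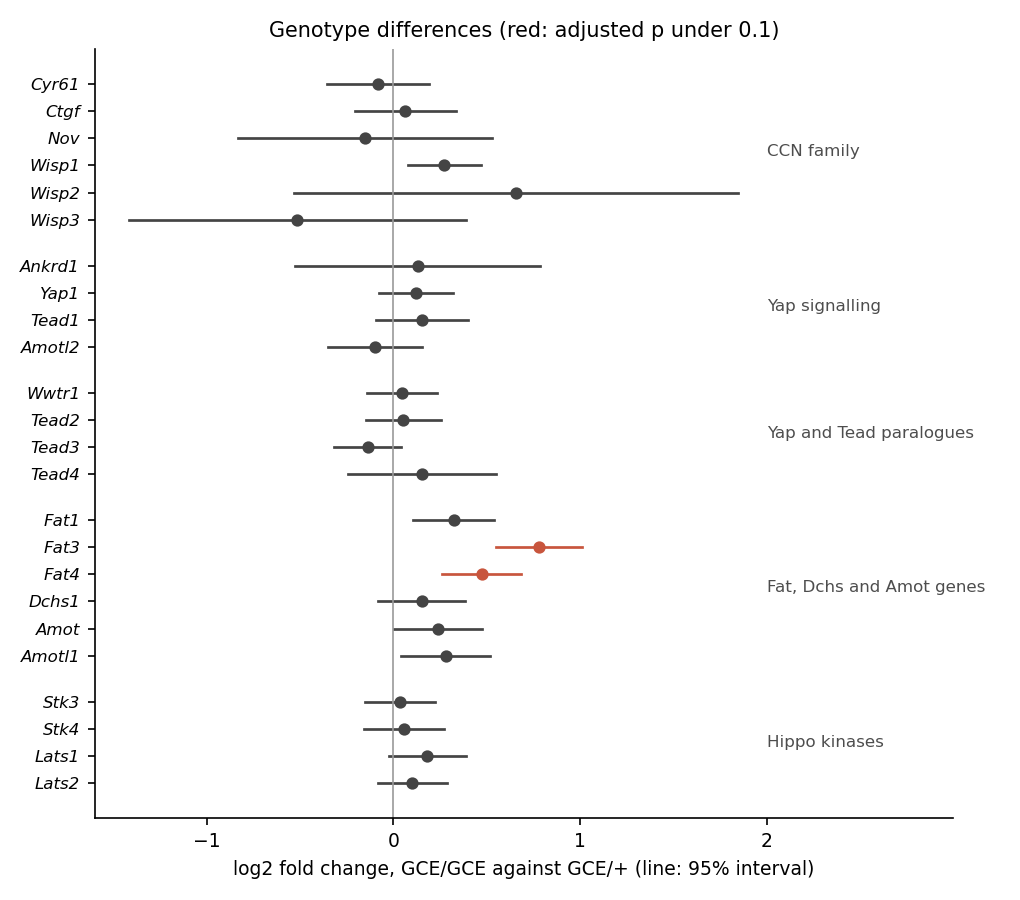
Log2 fold change of GCE/GCE against GCE/+ cells (points) with its 95% interval (lines) for CCN genes, Yap signalling genes, their paralogues, *Fat*, *Dchs1* and *Amot* genes and Hippo kinases, with genes at an adjusted p under 0.1 in red. Only *Fat3* (0.78) and *Fat4* (0.47) are red among the genes drawn, and the widest intervals are those of *Wisp2* and *Wisp3*.

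Of 8 genes for partners and paralogues of Yap1 and Tead1, 7 were tested and none passed the threshold. *Tead2* had 229 CPM in both GCE/+ samples and 225 and 250.1 CPM in the GCE/GCE embryos, a log2 fold change of 0.05 (interval -0.14 to 0.25). *Wwtr1* had 187 and 199 CPM in the GCE/+ embryos and 202 and 197 CPM in the GCE/GCE embryos, and a log2 fold change of 0.05 (interval -0.14 to 0.23). *Tead3* and *Tead4* had log2 fold changes of -0.14 and 0.15.

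The Hippo kinases and their adaptors phosphorylate and retain Yap1. None of these 14 genes passed. Their median log2 fold change was 0.10, and 13 had a positive one, compared with 50.9% of all genes tested. Both GCE/GCE values lay above both GCE/+ values for 6 of the 14, compared with 19.2% of all genes, and below for 1, compared with 19.1%. Their transcripts had a median length of 4947 bases, against 3117 for all genes tested, and the part of length in these values was not tested. *Lats1*, a kinase that acts directly on Yap1, had 131 and 149.6 CPM in the GCE/+ embryos and 159.5 and 159 CPM in the GCE/GCE embryos (log2 fold change 0.18, adjusted p = 0.561). *Lats2*, at once a kinase of the cascade and a target gene of Yap1, had a log2 fold change of 0.10. *Frmd6*, which encodes a FERM domain protein of the cascade and had the highest mean CPM of the list, had 0.09.

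Of 13 genes listed for the cell surface and junctions, 11 were tested. The threshold was passed by 2, both higher, compared with 0.895% of all genes higher and 1.82% in either direction. An unadjusted edgeR p under 0.05 was reached by 6 of the 11, and by 10.5% of all genes. *Fat3*, an atypical cadherin, rose from 59.3 and 71.3 CPM in the GCE/+ embryos to 111 and 113 CPM in the GCE/GCE embryos, a log2 fold change of 0.78 with an SE of 0.10 (adjusted p = 0.0240). *Fat4*, the receptor of the Dchs1 ligand, rose from 258 and 290.2 to 375 and 386 CPM, a log2 fold change of 0.47 with an SE of 0.09 (adjusted p = 0.0679). *Fat1* (0.32), *Amotl1* (0.28) and *Amot* (0.24) had an adjusted p of 0.207, 0.354 and 0.465 in the same edgeR test. *Fat1* passed in DESeq2 (adjusted p = 0.0613), and without GCE/+ replicate 2 *Fat1* (0.41) and *Amotl1* (0.42) passed in edgeR, where 6.03% of all genes did. *Amot* was the most abundant gene of the list, with 501 and 568 CPM in the GCE/+ embryos and 613 and 648 CPM in the GCE/GCE embryos, and *Fat2*, with 0.363 to 1.05 CPM, had a log2 fold change of 1.10 (adjusted p = 0.303).

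The transcripts of this list were long, with a median of 10746 bases against 3117 for all genes tested. Log2 fold changes rose with transcript length across the 15488 genes that had one (Spearman's rho 0.252, across genes that share the same 4 libraries), and the 577 genes over 9 kb had a median of 0.16. With offsets for each sample's trend on length, *Fat3* had a log2 fold change of 0.56 (adjusted p = 0.0233) and *Fat4* had 0.27 (adjusted p = 0.155), and 2.05% of all genes passed. *Fat1* had 0.13, *Amotl1* had 0.16 and *Amot* had 0.14 with these offsets. *Tead1*, with a transcript of 9964 bases, had 0.02 with them and 0.15 without. *Fat4* also missed the threshold without the filter on low counts (adjusted p = 0.133 in edgeR). It missed it too without GCE/+ replicate 1 (log2 fold change 0.38) and without GCE/GCE replicate 2 (0.45), and passed in DESeq2 (adjusted p = 0.000541).

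The RNA of target genes is an indirect measure of Yap1 and TAZ activity, and the phosphorylation and location of Yap1 were not measured. A published list of 22 target genes was taken whole. None of the 22 passed the threshold, 13 had a positive and 9 a negative log2 fold change, and the median was 0.09. The list includes *Cyr61*, *Ctgf*, *Ankrd1* and *Amotl2*, and over the other 18 the median was 0.11, with 11 positive. With the offsets for transcript length, the median over the 22 was 0.03. The 3 genes with an unadjusted edgeR p under 0.05, which 10.5% of all genes had, were *F3*, *Tgfb2* and *Foxf2*. *F3*, which encodes tissue factor, had 14.0 and 16.1 CPM in the GCE/+ embryos and 20.4 and 20.1 CPM in the GCE/GCE embryos (log2 fold change 0.43, adjusted p = 0.170). *Tgfb2*, which encodes a TGF-beta ligand, had 178 and 189 CPM in the GCE/+ embryos and 212 and 247 CPM in the GCE/GCE embryos (log2 fold change 0.32, adjusted p = 0.226). *Foxf2*, with less than 1 CPM in every sample, had -0.76 (adjusted p = 0.422). Without GCE/+ replicate 2 the list had 2 genes past the threshold, *F3* (log2 fold change 0.54) and *Ptpn14* (0.41), and a median of 0.19, while 6.03% of all genes passed, and without GCE/GCE replicate 1 it had 1, *Tgfb2* (0.42), while 4.7% of all genes passed. *Ptpn14*, which encodes a phosphatase that binds Yap1, is named because of this count, after its values were seen. With all 4 samples its log2 fold change was 0.25 (adjusted p = 0.479 in edgeR). It was 0.10 without GCE/+ replicate 1, and 0.11 with the offsets for transcript length.

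Of 12 genes for integrin chains and other surface proteins, listed as possible partners of CCN proteins, 1 passed the threshold, compared with 1.82% of all genes tested. Binding of CCN proteins to them was not measured. *Itga11*, which encodes a collagen-binding integrin chain of fibroblasts, rose from 27.8 and 28.9 CPM in the GCE/+ embryos to 40.7 and 37.4 CPM in the GCE/GCE embryos, a log2 fold change of 0.46 with an SE of 0.10 (adjusted p = 0.0781). The call was lost without the filter on low counts (adjusted p = 0.150 in edgeR). It was kept in DESeq2 (adjusted p = 0.0112) and with the offsets for transcript length in edgeR (0.42, adjusted p = 0.0760). It was also lost without GCE/+ replicate 1 (log2 fold change 0.43) and without GCE/GCE replicate 1 (0.39). The log2 fold change was 0.49 without GCE/+ replicate 2 and 0.52 without GCE/GCE replicate 2. *Sdc4*, which encodes the proteoglycan syndecan-4, had 42.0 and 37.0 CPM in the GCE/+ embryos and 29.6 and 28.5 CPM in the GCE/GCE embryos. Its log2 fold change of -0.44 (SE 0.10) just missed the threshold in edgeR, with an adjusted p of 0.103. *Sdc4* passed in DESeq2 with 0.0217, and in edgeR with the offsets for transcript length (-0.41, adjusted p = 0.0833). Its log2 fold change was -0.36 without GCE/+ replicate 1 and -0.53 without GCE/+ replicate 2. It was -0.48 without GCE/GCE replicate 1 and -0.42 without GCE/GCE replicate 2. *Itgb3*, a chain of the αvβ3 receptor of CCN1 and CCN2, had -0.46 (adjusted p = 0.368). *Itgb1*, the most abundant of the list, had 692 and 695 CPM in the GCE/+ embryos and 659.7 and 673 CPM in the GCE/GCE embryos, a log2 fold change of -0.06 (interval -0.27 to 0.16).

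For 7 of the 9 genes the larger difference between embryos of the same genotype exceeded the difference between the genotypes. This was so for 74.9% of all genes tested. *Nov* differed by 0.66 between the GCE/+ embryos and by 0.94 between the GCE/GCE embryos on the log2 scale, and 6.32% and 2.45% of genes tested had a larger difference in these pairs. *Cyr61* differed by 0.26 and 0.19, *Ctgf* by 0.23 and 0.20, and *Wisp1* by 0.10 and 0.12.

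All of these differences had replicate 1 above replicate 2. With *Wisp2* and *Wisp3*, the 6 CCN genes were higher in replicate 1 in both genotypes, compared with 24.3% of all genes and 27.3% of the 10322 genes with a transcript length in their range, 1.42 to 5.10 kb. Of the 4 genes *Ankrd1*, *Yap1*, *Tead1* and *Amotl2*, 0 did so. The labels do not say that a replicate number marks a litter or a day. Replicate differences also moved with transcript length, with a Spearman's rho of -0.445 in the GCE/+ embryos and 0.158 in the GCE/GCE embryos across 15481 genes, in opposite directions.

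Immediate early genes, which serum, stretch and cell dissociation induce as they do *Cyr61*, showed the same order of samples. Of 18 such genes 17 were higher in replicate 1 in both genotypes, with a median log2 difference of 0.29 in the GCE/+ embryos and 0.35 in the GCE/GCE embryos. Their summed CPM was 11607 and 9315 in the GCE/+ embryos and 11518 and 9019 in the GCE/GCE embryos. They were abundant in all 4 samples, with *Fosb* at 2009 to 2581 CPM and rank 14, and none differed between the genotypes past the threshold. *Egr3* was the exception in the order of samples. Of 12 target genes of serum response factor, headed by *Actg1* at 2830.2 to 2991 CPM, 4 were higher in replicate 1 in both genotypes and none passed the threshold between them. All 8 endothelial markers were also higher in replicate 1 in both genotypes, with summed levels of 120.2 and 96.5 CPM in the GCE/+ embryos and 97.2 and 80.8 CPM in the GCE/GCE embryos. Of the 8, 4 had an unadjusted edgeR p under 0.05, compared with 10.5% of all genes. These 4 were lower in the GCE/GCE embryos, and none of the 8 passed the threshold. None was at 0 in any sample, and *Pecam1* had 18.5 and 13.8 CPM in the GCE/+ embryos and 13.45 and 10.9 CPM in the GCE/GCE embryos. Of the 8 mesenchymal markers 6 were higher in replicate 1 in both genotypes (medians 0.24 in GCE/+ and 0.18 in GCE/GCE on the log2 scale), *Pdgfra* and *Prrx1* being the exceptions, and so were 6 of the 8 macrophage markers (medians 0.09 and 0.54). The part of these lists in the CCN differences was not tested.

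**Figure D4:**
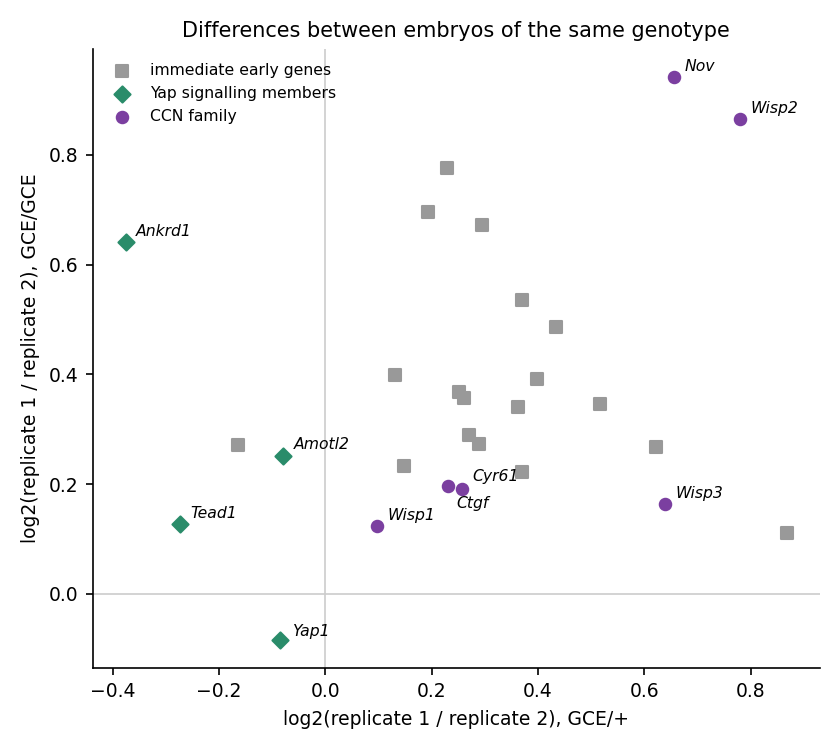
Log2 ratio of replicate 1 to replicate 2 in the GCE/+ embryos (horizontal axis) and in the GCE/GCE embryos (vertical axis) for the 6 CCN genes, the 4 Yap signalling genes of the set and 18 immediate early genes. All 6 CCN genes and 17 of the 18 immediate early genes lie to the upper right of the origin, with *Nov* at 0.66 and 0.94, and the 4 Yap signalling genes lie to the left.

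Markers of 5 further cell types were set beside these values. The 8 macrophage genes each had their 2 GCE/GCE values below the 2 GCE/+ values, 6 of them past the threshold, with a median log2 fold change of -1.03. The 8 cartilage genes each had them above, 2 of them past the threshold, with a median of 0.90. GCE/+ replicate 1 was lowest for each. Of all genes tested, 19.1% had both GCE/GCE values below both GCE/+ values, and 19.2% had both above. The threshold was passed by 0.927% of all genes with lower and by 0.895% with higher values. Of 6 tendon genes 5 had a positive log2 fold change, 3 of them past the threshold, and 1, *Kera*, passed it with lower values. Of 8 myogenic genes none passed, with summed levels of 156 and 175 CPM in the GCE/+ embryos and 199.97 and 170.3 CPM in the GCE/GCE embryos. Of 5 erythroid genes, 4 were tested and none passed, and their summed level was 461 CPM in GCE/+ replicate 1, the highest sample, 158 CPM in GCE/+ replicate 2, the lowest, and 309.6 and 281 CPM in the GCE/GCE embryos. All 4 were higher in replicate 1 than in replicate 2 within GCE/+ (median log2 difference 1.11) and 2 within GCE/GCE (median -0.03). No sample was at 0 for the defining markers *Csf1r*, *Col2a1*, *Tnmd* or *Myog*. The part of these cell types in the levels of *Wisp1*, *Fat3*, *Fat4* or *Itga11* was not tested.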

How the data were processed

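Per the labels and the study's methods, 50-bp paired-end reads were mapped to mm9 with TopHat2 under the UCSC gene model, and HTSeq (intersection strict) assigned fragments to genes. What the authors deposited is 1 raw count per symbol. The TruSeq kit used keeps no strand, so overlapping genes cannot be separated. Counts were filtered with filterByExpr, TMM-normalized and tested with edgeR 4.0.16 (R 4.3.3, quasi-likelihood, legacy off, prior df 6.38, residual df 2), two-sided, with Benjamini-Hochberg adjustment over 15645 genes and the study's threshold of 0.1. SE and intervals were derived from the F statistic. DESeq2 1.42.0, the study's tool, was an alternative. Both were tested on simulated counts. Floors cover counting error only.

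Symbols were matched to GRCm38.p6 (99.0%), so coordinates are not those of the mapping. Transcript length is the union of exons of RefSeq-matched GENCODE M21 transcripts. Figures were drawn with matplotlib 3.10.9. The genes, lists and tests were chosen with earlier results of these data known. Named are all 9 genes and, from the lists, genes past the threshold or with an unadjusted p under 0.05, close paralogues and the most abundant gene. For marker lists of other cell types, counts and sums stand for the genes. With 4 samples, genes of similar pattern were not sought. P-values rest on the spread between these embryos, most of it as shared across genes rather than that of the gene itself. 1 gene of the erythroid list is not reported here.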

Additional observations from a re-analysis of the deposited data

How the results depend on the processing

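The 9 genes were recomputed under 12 alternatives, which gave 107 log2 fold changes. Of these, 1 passed the threshold, that of *Nov* without GCE/GCE replicate 1, and 9 changed sign, all of them on leaving out a sample. The ranges over left-out samples were -0.20 to 0.048 for *Cyr61*, -0.047 to 0.18 for *Ctgf*, -0.70 to 0.24 for *Nov*, -0.23 to 0.42 for *Ankrd1* and -0.23 to 0.024 for *Amotl2*. *Wisp1* (0.20 to 0.33), *Yap1*, *Tead1* and *Wisp2* kept their sign under each alternative that gave a value, and *Wisp2* had too few counts for the minimum of 10 in every sample. The number of the 9 genes past the threshold was 0 to 1 over left-out samples, that of the 22 target genes was 0 to 2, and the median of the latter was 0.028 to 0.19. Among all genes 285 passed, 508 in DESeq2, 127 without the filter on low counts, 130 at an adjusted p of 0.05, and 199 to 961 when a sample was left out. With the replicate number as a block, 290 genes and 0 of the 9 passed and *Itga11* had an adjusted p of 0.115. Deviations of same-numbered samples had a correlation of -0.004, so that the numbers are not taken as pairs. The older quasi-likelihood fit and the offsets for transcript length, both added after the data were seen, called 0 of the 9. The order of levels of the 9 genes was the same without the length correction, without TMM factors and with the longest transcript. That of the paralogues was not. Without the length correction *Tead1*, with mean CPM of 179 in GCE/+ and 199 in GCE/GCE, lay above *Tead3* (73.5 and 66.8). *Yap1* (303 and 329) then lay above *Tead2* (229 and 238).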
